A study of Mus musculus with 58 samples.

Results

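The genes described here are the 4 mouse DNA methyltransferase family genes Dnmt1, Dnmt3a, Dnmt3b and Dnmt3l, and the measurement is H3K27ac over their loci in full-grown oocytes. H3K27ac is histone H3 acetylated on lysine 27, which marks promoters and enhancers in use. Members were chosen by name, each with a fixed interval of mouse build mm9. The intervals were chr9:20700001-20770000 for Dnmt1 (70 kb), chr12:3795001-3925000 for Dnmt3a (130 kb), chr2:153465001-153520000 for Dnmt3b (55 kb) and chr10:77495001-77535000 for Dnmt3l (40 kb). Together they held 59 of the 527783 windows of 5 kb on the autosomes and chromosome X. Where each gene begins and ends inside its interval is not given here, because no annotation of mm9 was used.

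The series used STAR ChIP-seq, chromatin immunoprecipitation adapted to few cells, on oocytes and preimplantation embryos of the mouse, with 58 samples in 34 groups. The 4 samples used here were full-grown oocytes (labelled FGO) immunoprecipitated with an H3K27ac antibody. Control oocytes were labelled Setd2+/- and thus carry 1 mutant allele themselves, and knockout oocytes were labelled Setd2-/-. Setd2 encodes the methyltransferase that trimethylates histone H3 at lysine 36 (H3K36me3). The labels' protocol gives females of 8 weeks for the hormone-primed collections, its passage on the germinal vesicle stage is unreadable, and the sources used here give neither the driver of the knockout nor the number of oocytes. Each genotype had 2 replicates, and the authors deposited 1 pooled track per genotype, of 30694806 reads in control and 29367645 in knockout, so replicates cannot be compared and no test or p-value is given. Signal is in RPKM (read density per base, relative to all reads of the library), which is scaled to library size and comparable between loci of different length.

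DNA methyltransferases place methyl groups on cytosines in CpG dinucleotides. DNMT3A and DNMT3B methylate unmethylated DNA, DNMT3L is a relative without catalytic activity that binds and stimulates them, and DNMT1 copies methylation onto new strands. In growing mouse oocytes, DNMT3A with DNMT3L sets most of the methylation of the maternal genome, imprinted regions included, largely over transcribed gene bodies that carry H3K36me3, whereas DNMT3B is dispensable there. DNMT1 is stored in the oocyte for the embryo.

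The promoter sequences printed here show how unlike the starts of these genes are. They are the 250 bases before an annotated start, 5′ to 3′ on the strand of the gene, from RefSeq on build GRCm38.p6, and capitals mark each CpG, the substrate of these enzymes. All 4 genes had RefSeq entries, with 10 starts in all. These starts were not placed on the mm9 tracks, and which of them the oocyte uses was not measured here. For Dnmt1, on the minus strand of chromosome 9, starts 1 and 3 are printed, 7.265 kb apart. For Dnmt3a start 3 is printed, which lies 84.76 kb downstream of start 1. Dnmt3b has 1 start, and start 1 of the 3 starts of Dnmt3l is printed.
Dnmt1 start 1, chr9:20959889-20960138, minus strand: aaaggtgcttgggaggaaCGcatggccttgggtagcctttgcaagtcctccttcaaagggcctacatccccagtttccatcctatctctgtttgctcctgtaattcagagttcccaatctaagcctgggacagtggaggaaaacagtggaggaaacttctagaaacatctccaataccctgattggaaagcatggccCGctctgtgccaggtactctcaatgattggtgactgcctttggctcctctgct
Dnmt1 start 3, chr9:20952624-20952873, minus strand: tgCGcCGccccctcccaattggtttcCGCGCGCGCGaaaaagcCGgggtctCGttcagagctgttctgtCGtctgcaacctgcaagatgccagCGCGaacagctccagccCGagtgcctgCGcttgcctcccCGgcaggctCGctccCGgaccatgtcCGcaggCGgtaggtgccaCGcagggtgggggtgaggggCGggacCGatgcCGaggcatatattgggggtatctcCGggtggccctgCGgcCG
Dnmt3a start 3, chr12:3891494-3891743, plus strand: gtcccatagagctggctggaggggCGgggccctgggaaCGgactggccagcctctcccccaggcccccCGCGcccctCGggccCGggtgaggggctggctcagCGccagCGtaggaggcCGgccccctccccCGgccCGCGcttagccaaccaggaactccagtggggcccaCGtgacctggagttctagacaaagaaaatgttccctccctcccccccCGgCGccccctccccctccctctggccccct
Dnmt3b start 1, chr2:153649199-153649448, plus strand: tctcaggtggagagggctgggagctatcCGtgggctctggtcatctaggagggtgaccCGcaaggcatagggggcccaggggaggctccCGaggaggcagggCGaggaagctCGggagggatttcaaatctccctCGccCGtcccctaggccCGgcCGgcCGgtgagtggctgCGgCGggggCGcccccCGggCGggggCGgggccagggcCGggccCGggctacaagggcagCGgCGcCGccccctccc
Dnmt3l start 1, chr10:78042037-78042286, plus strand: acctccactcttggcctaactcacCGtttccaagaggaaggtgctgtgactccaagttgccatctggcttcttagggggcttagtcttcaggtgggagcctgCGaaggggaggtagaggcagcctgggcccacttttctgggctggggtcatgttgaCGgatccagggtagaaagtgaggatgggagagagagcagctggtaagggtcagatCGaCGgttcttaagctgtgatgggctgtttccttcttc

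The Dnmt1 window at start 1 held 2 CpG and that at start 3 held 26, more than 90.4% of the 32841 RefSeq promoters of this length, whose median was 6. Starts 1 and 2 of Dnmt3a held 38 and 40 CpG, above 98.1% and 98.7% of promoters, and start 3 held 15. The Dnmt3b promoter held 21 CpG. Start 2 of Dnmt1, with 7 CpG, was near the median, and the starts of Dnmt3l were somewhat under it, with 5, 4 and 3 CpG (44.4%, 37.8% and 29.0% of promoters had fewer). Start 1 of Dnmt1 was the poorest of the 10, with 18.8% of promoters below it, while start 3 of Dnmt3a and the Dnmt3b promoter had more than 72.7% and 83.7%. The GC box GGGCGG, searched as GGGCGG and as CCGCCC for the other strand, was present in 6 of the 10 windows and in 32.8% of all promoters. The windows of starts 1 and 2 of Dnmt3a overlap and so share bases, CpGs and boxes. The boxes, each of which contains a CpG, numbered 5, 4 and 1 at the starts of Dnmt3a, 3 at Dnmt3b, 2 at start 3 of Dnmt1 and 2 at start 2 of Dnmt3l.

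Relative to all reads of its library, the knockout pool held more H3K27ac than the control pool at all 4 loci. The difference was larger at Dnmt3l and Dnmt1 than at Dnmt3a and Dnmt3b. Levels scaled in this way do not show the total H3K27ac of a genotype, which was not measured here. Dnmt3l went from 0.415 RPKM in control to 1.37 RPKM in knockout, a ratio of 3.30 (95% Clopper-Pearson interval 2.99 to 3.65). Dnmt1 stood at 0.424 and 1.27 RPKM, a ratio of 3.01 (2.79 to 3.24). At Dnmt3a the levels were 0.375 and 0.702 RPKM, a ratio of 1.87 (1.76 to 1.99), and at Dnmt3b 0.370 and 0.677 RPKM, a ratio of 1.83 (1.66 to 2.02). Intervals here cover counting error of reads only, not differences between animals or libraries, and may be too narrow even for that, as PCR reads without molecular identifiers are not independent molecules. In pooled cells, a mark on more alleles and more mark per allele cannot be told apart.

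In control oocytes the 4 loci were unremarkable in level. They lay between 0.977 and 1.12 times the genome-wide mean of 0.379 RPKM, in the order Dnmt1, Dnmt3l, Dnmt3a, Dnmt3b. Neighbours in that order had overlapping Poisson intervals, narrowly so for Dnmt3l (0.379 to 0.452 RPKM) and Dnmt3a (0.357 to 0.395 RPKM). Overlap of separate intervals, here and below, does not by itself place a difference within counting error. Of all 70 kb stretches of the genome, 54.8% had less control signal than Dnmt1, and the share was likewise 54.8% for Dnmt3l among 40 kb stretches, 46.2% for Dnmt3a among 130 kb stretches and 47.8% for Dnmt3b among 55 kb stretches. In knockout oocytes the order was Dnmt3l, Dnmt1, Dnmt3a, Dnmt3b, at 3.61, 3.36, 1.85 and 1.79 times the mean. The first place of Dnmt3l rested on 1 bin of 225 reads, described further on: leaving out the richest knockout bin of each locus gave 1.18 RPKM for Dnmt3l and 1.26 RPKM for Dnmt1. The 2 upper loci (1.30 to 1.44 and 1.23 to 1.32 RPKM) and the 2 lower loci (0.676 to 0.730 and 0.638 to 0.719 RPKM) had overlapping intervals within each pair and none between pairs. Dnmt3l and Dnmt1 now stood above 99.4% of stretches of their length, Dnmt3a above 86.5% and Dnmt3b above 83.6%.

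Among stretches of the same length, Dnmt1 and Dnmt3l were near the upper end of the knockout over control differences, and Dnmt3a and Dnmt3b were in the upper part. On the scale of log2 of RPKM + 0.1, which understates changes of low regions, the knockout over control difference was 1.51 at Dnmt3l, 1.39 at Dnmt1, 0.76 at Dnmt3a and 0.73 at Dnmt3b. Without its bin of 225 reads Dnmt3l stood at 1.32, and its place among stretches was not recomputed for that value. Of all stretches of the same length, with no filter on level, 99.6% had a lower difference than Dnmt1, 99.6% than Dnmt3l, 91.3% than Dnmt3a and 88.7% than Dnmt3b. Among the stretches whose mean over both pools reached the genome-wide mean, the shares were 99.5%, 99.5%, 89.6% and 85.7%, and Dnmt3a and Dnmt3b themselves reached it only through their knockout level. In these filtered stretches, differences of at least 2-fold upward were found in 4.89% of 70 kb stretches, 6.34% of 40 kb stretches, 3.19% of 130 kb stretches and 5.44% of 55 kb stretches. Dnmt1 and Dnmt3l passed that fold and Dnmt3a and Dnmt3b did not. Median differences of the filtered stretches were between 0.04 and 0.07. The plot of same-length stretches shows these positions.

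**Figure D1:**
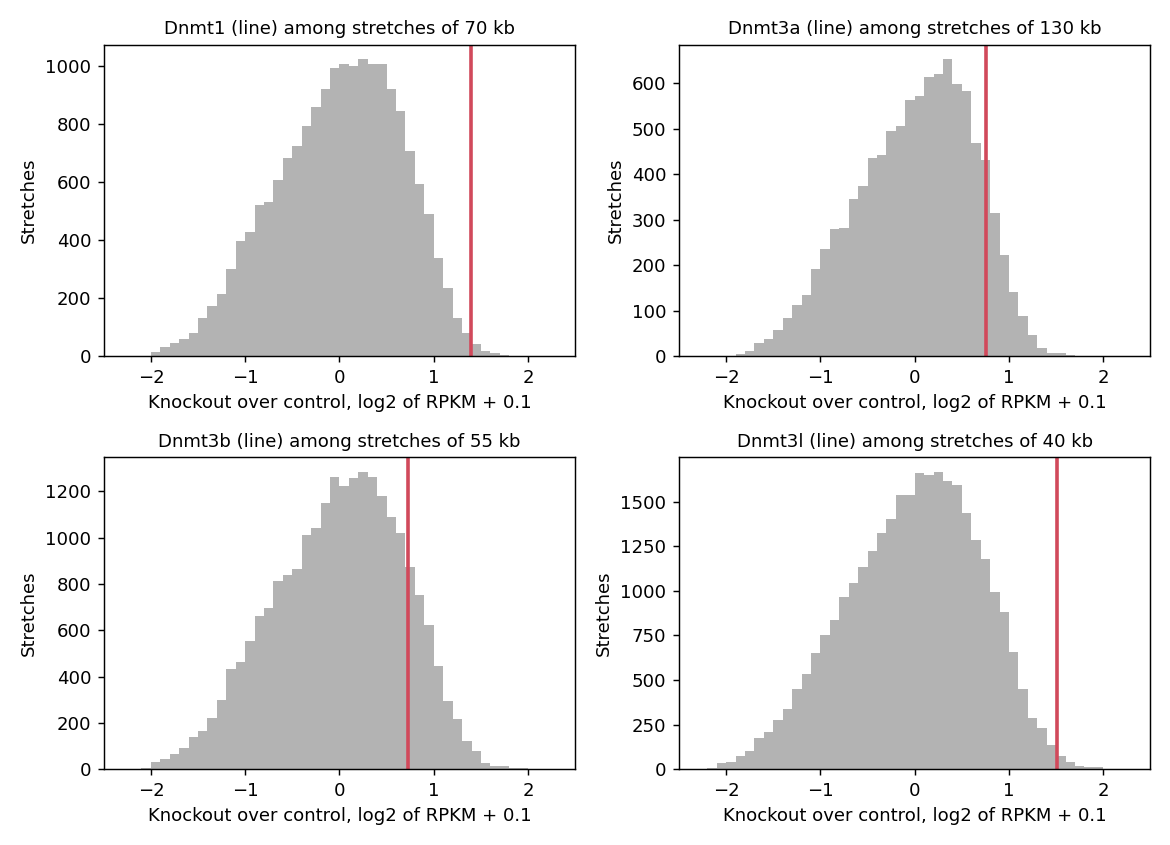
Number of genome stretches (y axis) by their knockout over control difference (x axis, log2 of RPKM + 0.1) for stretches as long as each interval whose mean over both pools reached 0.379 RPKM. The line marks the interval of the gene, at 1.39 for Dnmt1, 0.76 for Dnmt3a, 0.73 for Dnmt3b and 1.51 for Dnmt3l. The value of Dnmt3l includes 1 bin of 225 reads and was 1.32 without it.

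In windows of 5 kb the direction was nearly uniform. Of the 59 windows, 53 were higher in the knockout pool (89.8%), against 48.3% of all windows of the genome. The 6 windows that were not higher all lay in the Dnmt3a interval. With no filter on level, 28 of the 59 were at least 2-fold higher (47.5%), against 8.58% of all windows, and 0 were at least 2-fold lower, against 13.1%. They were 11 of 14 at Dnmt1, 7 of 8 at Dnmt3l, 8 of 26 at Dnmt3a and 2 of 11 at Dnmt3b. Of the 44 windows whose mean over both pools reached the genome-wide mean, 26 were called higher, against a background of 11.6%, and 0 lower, against 15.2%. This count is partly set by the filter, since 15 of the 26 had control levels below the genome-wide mean and passed through their knockout level.

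**Figure D2:**
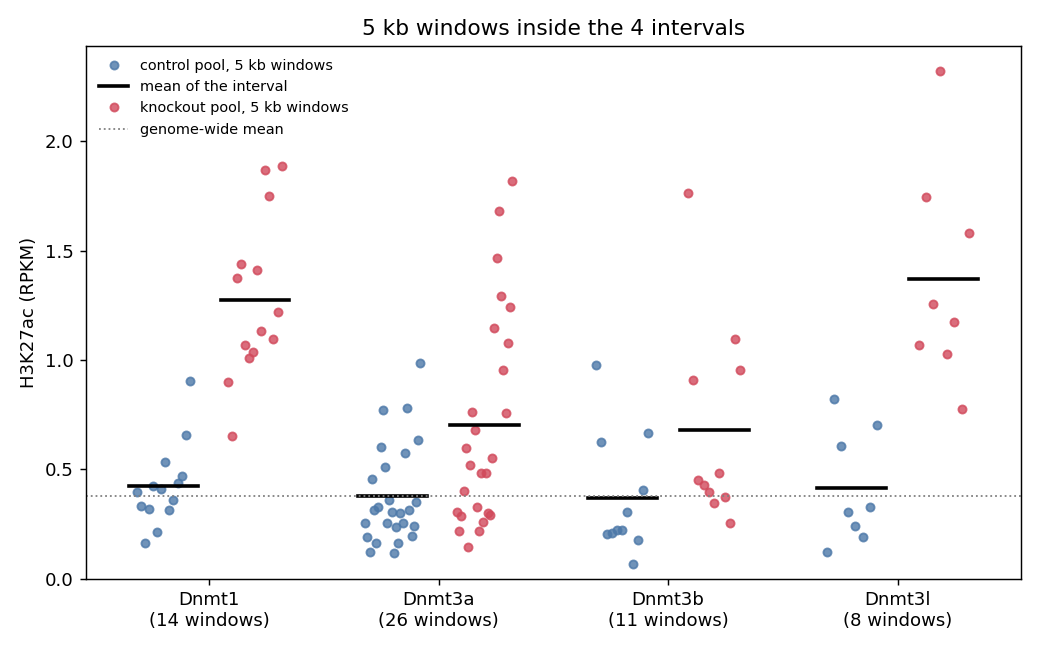
H3K27ac in RPKM (y axis) in each 5 kb window of the 4 intervals (x axis), 1 point per window, with bars at the mean of the interval and a dotted line at the genome-wide mean of 0.379 RPKM. Points are windows of 1 pool and not replicates; 12 of 14 knockout windows of Dnmt1 lie above its highest control window, at 0.906 RPKM.

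Dnmt3a, the enzyme that sets most oocyte methylation, had an uneven locus. Its 26 windows ran from 0.117 over a median of 0.310 to 0.984 RPKM in control and from 0.143 over 0.535 to 1.82 RPKM in knockout. Most of the difference lay in 7 adjacent windows, chr12:3880001-3915000, which begin 85 kb into the interval and went from 0.387 to 1.20 RPKM, a ratio of 3.09. This run was bounded by the 2-fold rule, so its contrast with the windows outside it follows in part from that choice. The 17 windows before this run stood at 0.320 RPKM in control and 0.402 in knockout, a ratio of 1.26. Those that reached the genome-wide mean all differed by less than 2-fold, where 11.6% of such genome windows were called higher. The others could not be called by the rule. A window among these others, chr12:3860001-3865000, went from 0.117 to 0.484 RPKM on 18 and 71 reads. Before the run 11 of 17 windows were higher in knockout. In 1 of these, chr12:3815001-3820000, a single bin held 60 knockout and 3 control reads. With at most 10 reads per bin that window was lower in knockout, with a log2 difference of -0.20. The window with the lowest difference, chr12:3840001-3845000, went from 0.508 to 0.327 RPKM, a ratio of 0.643 (0.439 to 0.933). The window with the highest difference, chr12:3900001-3905000 inside the run, went from 0.196 to 0.954 RPKM with 30 and 140 reads. The last 10 kb, with 0.808 RPKM in control and 1.53 in knockout, held the control pool's richest 1 kb window, where the pools did not separate (1.63 and 1.53 RPKM). RefSeq on GRCm38.p6 places start 3 of Dnmt3a 84.76 kb from start 1, and also lists the lncRNAs Dnmt3aos and Gm31623 within the gene. That distance is counted from start 1, whereas the 85 kb of the run is counted from the edge of the interval. The 2 distances therefore cannot be compared. Where start 3 lies relative to the run was not tested.

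Dnmt3l, the stimulating partner, had the largest ratio and the largest share of its knockout reads in a single bin. Its first place in ratio rested on that bin. Its 8 windows ran from 0.124 over a median of 0.316 to 0.821 RPKM in control and from 0.777 over 1.21 to 2.32 RPKM in knockout, and each was higher in knockout. The window with the lowest difference among them, chr10:77505001-77510000, went from 0.606 to 1.25 RPKM. A single 100 bp bin, chr10:77511401-77511500, held 225 of the 1607 knockout reads of the interval (14.0%) and 3 of its 509 control reads. This bin gave 66.0% of the knockout reads of the window with the highest difference, chr10:77510001-77515000, which went from 0.306 to 2.32 RPKM. With at most 10 reads counted per bin, that window's knockout level was 0.858 RPKM and its log2 difference 1.24 in place of 2.58. Without the bin the whole interval stood at 1.18 RPKM in knockout, a ratio of 2.85 to control, so most of the difference lay elsewhere in the locus. With the limit of 10 reads per bin the ratios were 2.76 at Dnmt3l and 2.85 at Dnmt1, and the order of these loci changed. Windows at the start and end of the interval were also higher: the first went from 0.124 to 1.07 RPKM and the last from 0.704 to 1.58 RPKM. The neighbouring genes on GRCm38 are Aire and Icosl, and a copy named Dnmt3l-ps1 lies elsewhere in the genome, as does Dnmt3a-ps1 for Dnmt3a. The sources used here do not give how reads with several possible origins were treated.

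Dnmt1, the maintenance enzyme, held more signal in knockout along most of its interval, in 67 of 70 windows of 1 kb. The share of all 1 kb windows of the genome that were higher in knockout was not computed. Its 14 windows ran from 0.163 over a median of 0.404 to 0.906 RPKM in control and from 0.654 over 1.18 to 1.89 RPKM in knockout, and all 14 were higher in knockout. A run of 10 adjacent windows, chr9:20710001-20760000, were each at least 2-fold higher and went together from 0.364 to 1.32 RPKM, a ratio of 3.62. The remaining 4 windows went from 0.573 to 1.16 RPKM, a ratio of 2.03. The run was bounded by its fold, so the gap between these ratios follows in part from that choice. The window with the highest difference, chr9:20710001-20715000, was the poorest in control, at 0.163 RPKM from 25 reads, and stood at 1.38 RPKM from 202 reads in knockout, a ratio of 8.45 (5.56 to 13.4). The window with the lowest difference, chr9:20760001-20765000, was among the richest in control and went from 0.658 to 1.22 RPKM. The richest 1 kb window of the control pool was chr9:20765001-20766000, with 41 control and 71 knockout reads. That of the knockout pool was chr9:20748001-20749000, with 16 control and 77 knockout reads, so in knockout the difference between these windows was within counting error. No single bin dominated: the highest held 23 of 2619 knockout reads.

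Dnmt3b, the enzyme not needed for oocyte methylation, kept the shape of its control profile at a higher level. Its 11 windows ran from 0.0652 over a median of 0.222 to 0.978 RPKM in control and from 0.252 over 0.450 to 1.76 RPKM in knockout, and all 11 were higher in knockout. Levels were high at both ends of the interval and low between them in both pools, and the richest 1 kb windows were close to each other, at chr2:153466001-153467000 in control (1.24 RPKM, 1.98 in knockout) and chr2:153469001-153470000 in knockout (2.15 RPKM, 1.14 in control). Across its 11 windows the levels of the pools correlated with Pearson's r of 0.89 on the log2 scale, against 0.62 for Dnmt3a (26 windows), 0.42 for Dnmt3l (8 windows) and 0.31 for Dnmt1 (14 windows). Adjacent windows share library and depth, so these are descriptions. The 1 window called among those that reached the genome-wide mean, chr2:153510001-153515000, went from 0.404 to 1.10 RPKM, a ratio of 2.71 (2.01 to 3.70), and its neighbour chr2:153515001-153520000 had the lowest difference among those, from 0.665 to 0.954 RPKM, a ratio of 1.43. Below the genome-wide mean, chr2:153500001-153505000 had the highest log2 difference of the interval, 1.52 on 10 and 55 reads, and chr2:153505001-153510000 the lowest, 0.35 on 27 and 37 reads. RefSeq lists Dnmt3b-ps1, also known as Dnmt3c, beside this gene, between Commd7 and Mapre1.

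**Figure D3:**
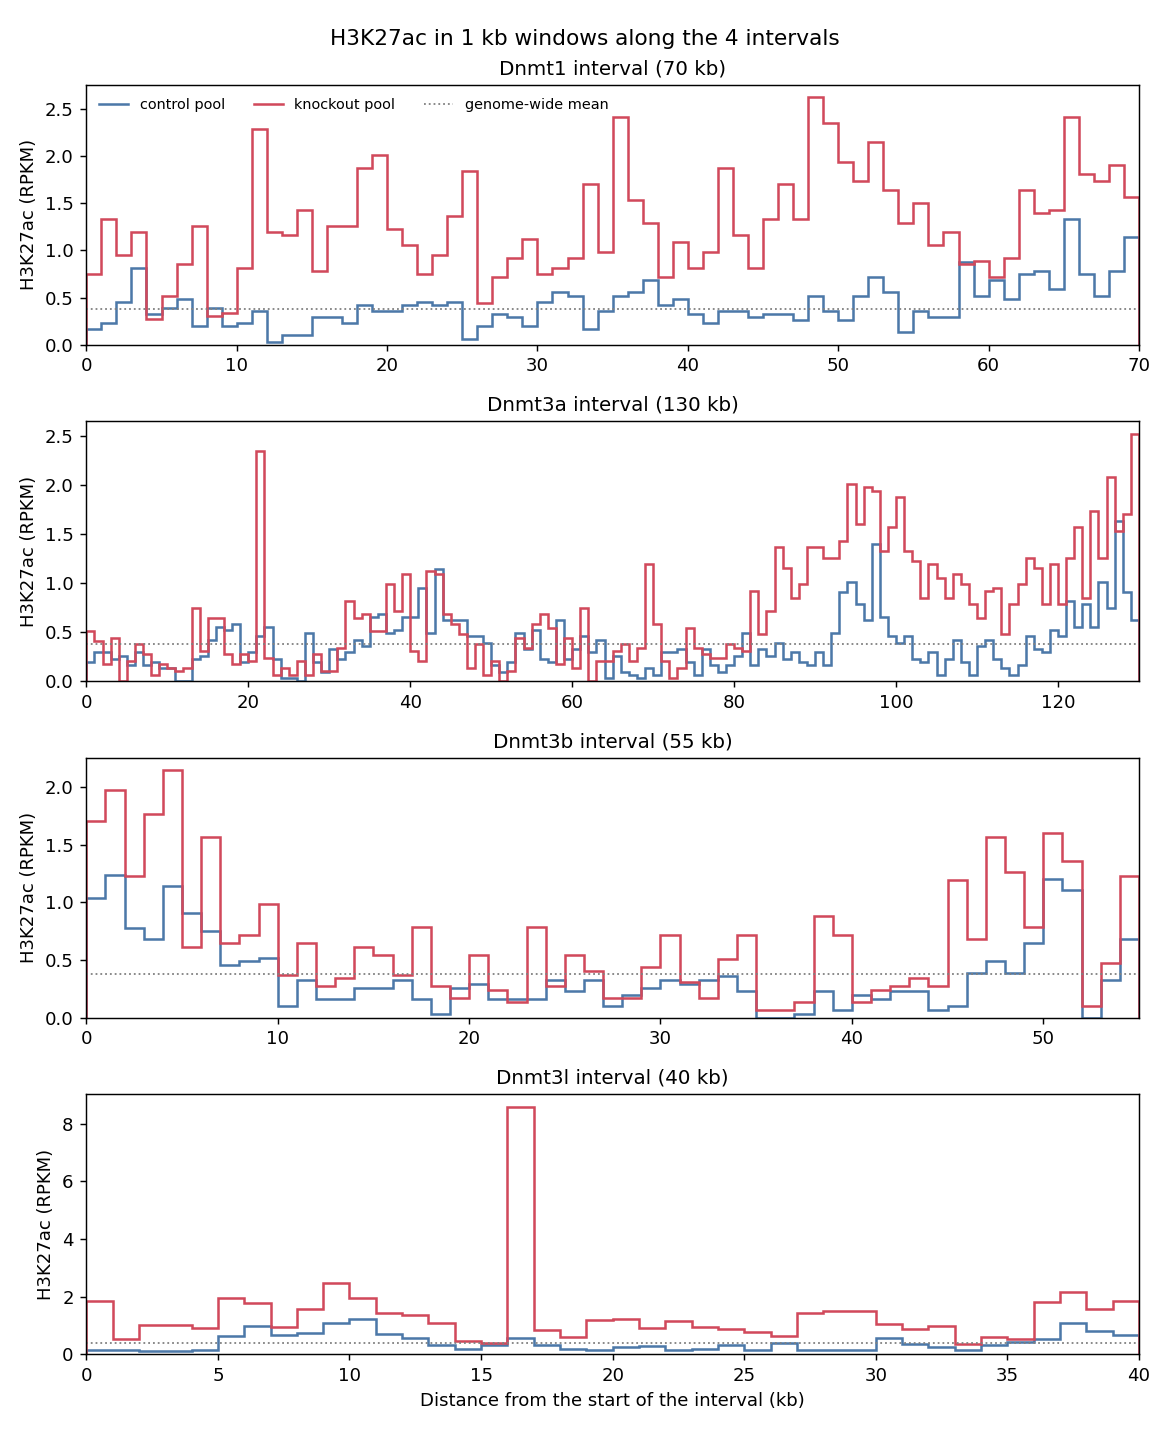
H3K27ac in RPKM (y axis, scaled separately per panel) in 1 kb windows along each interval (x axis, distance from its start in kb) for both pools, with a dotted line at the genome-wide mean. The knockout line stays above control along most of Dnmt1 and Dnmt3l, lies above it in most windows of the last 45 kb of Dnmt3a, though not at the control pool's richest window (1.63 against 1.53 RPKM), and follows its shape at Dnmt3b; the peak of 8.58 RPKM at Dnmt3l comes mostly from 1 bin.

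The extent of rich chromatin differed in the same way. Rich windows of 1 kb, with 3 or more times their own pool's mean, numbered 2 of 70 at Dnmt1, 3 of 130 at Dnmt3a, 3 of 55 at Dnmt3b and 1 of 40 at Dnmt3l in control, against 4.64% of such windows in the genome. In knockout they numbered 40 at Dnmt1 (57.1%), 30 at Dnmt3a (23.1%), 12 at Dnmt3b (21.8%) and 19 at Dnmt3l (47.5%), against 7.63% in the genome. The counts depend on the threshold. At 5 times the mean they were 9, 6, 2 and 5 in knockout and 0 at each locus in control. At 2 times they were 59, 51, 17 and 32 in knockout and 6, 11, 7 and 5 in control. The genome's share at 5 and 2 times the mean was not computed, so these counts have no background beside them. Of the few windows rich in control, 2 of 2, 2 of 3, 3 of 3 and 1 of 1 were also rich in knockout. The genome's share of control-rich windows that were also rich in knockout was not computed, so these counts have no background either. Bins without a read made up 41.3% of Dnmt1 in control and 21.1% in knockout, and 48.0% and 27.8% of Dnmt3l. At Dnmt3a and Dnmt3b the share moved less, from 49.3% to 45.5% and from 51.8% to 46.2%. Over the whole tracks the direction was the opposite, with 11679676 bins holding reads in control and 8718653 in knockout. Even read counts made up 43.0% of such bins in control and 52.9% in knockout. The pools thus differed in how their reads were spread, and the cause was not tested.

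The 200 kb on each side of the intervals also held more H3K27ac in knockout on average, by smaller ratios than the intervals except before Dnmt1. The 200 kb before Dnmt1 was poor, at 0.0823 RPKM in control and 0.253 in knockout (3.08-fold), and the 200 kb after it went from 0.402 to 0.690 RPKM (1.72-fold). Around Dnmt3l the ratios were 1.73 before and 1.42 after the interval, and around Dnmt3b 1.19 and 1.68. The flanks of Dnmt3a went from 0.514 to 0.744 RPKM (1.45-fold) and from 0.452 to 0.766 RPKM (1.69-fold). Whole-chromosome means differed less, from 0.378 to 0.423 RPKM on chromosome 9, 0.414 to 0.424 on chromosome 10, 0.382 to 0.401 on chromosome 2 and 0.358 to 0.359 on chromosome 12. With no filter on level, the 5 kb windows at least 2-fold higher numbered 12, 4, 2 and 5 of 40 before Dnmt1, Dnmt3a, Dnmt3b and Dnmt3l, and 8, 10, 5 and 7 of 40 after them, against 8.58% of all windows. The 4 windows before Dnmt3a and the 2 before Dnmt3b were thus near or below the genome's share. Over all flanks, 53 of 320 windows were at least 2-fold higher, and 252 were higher in knockout by any amount. The latter compares with 48.3% of all windows of the genome. In the 200 kb before Dnmt3b the count higher by any amount was 19 of 40. Only 1 of the 320 flank windows was at least 2-fold lower, against 13.1% of all windows.

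**Figure D4:**
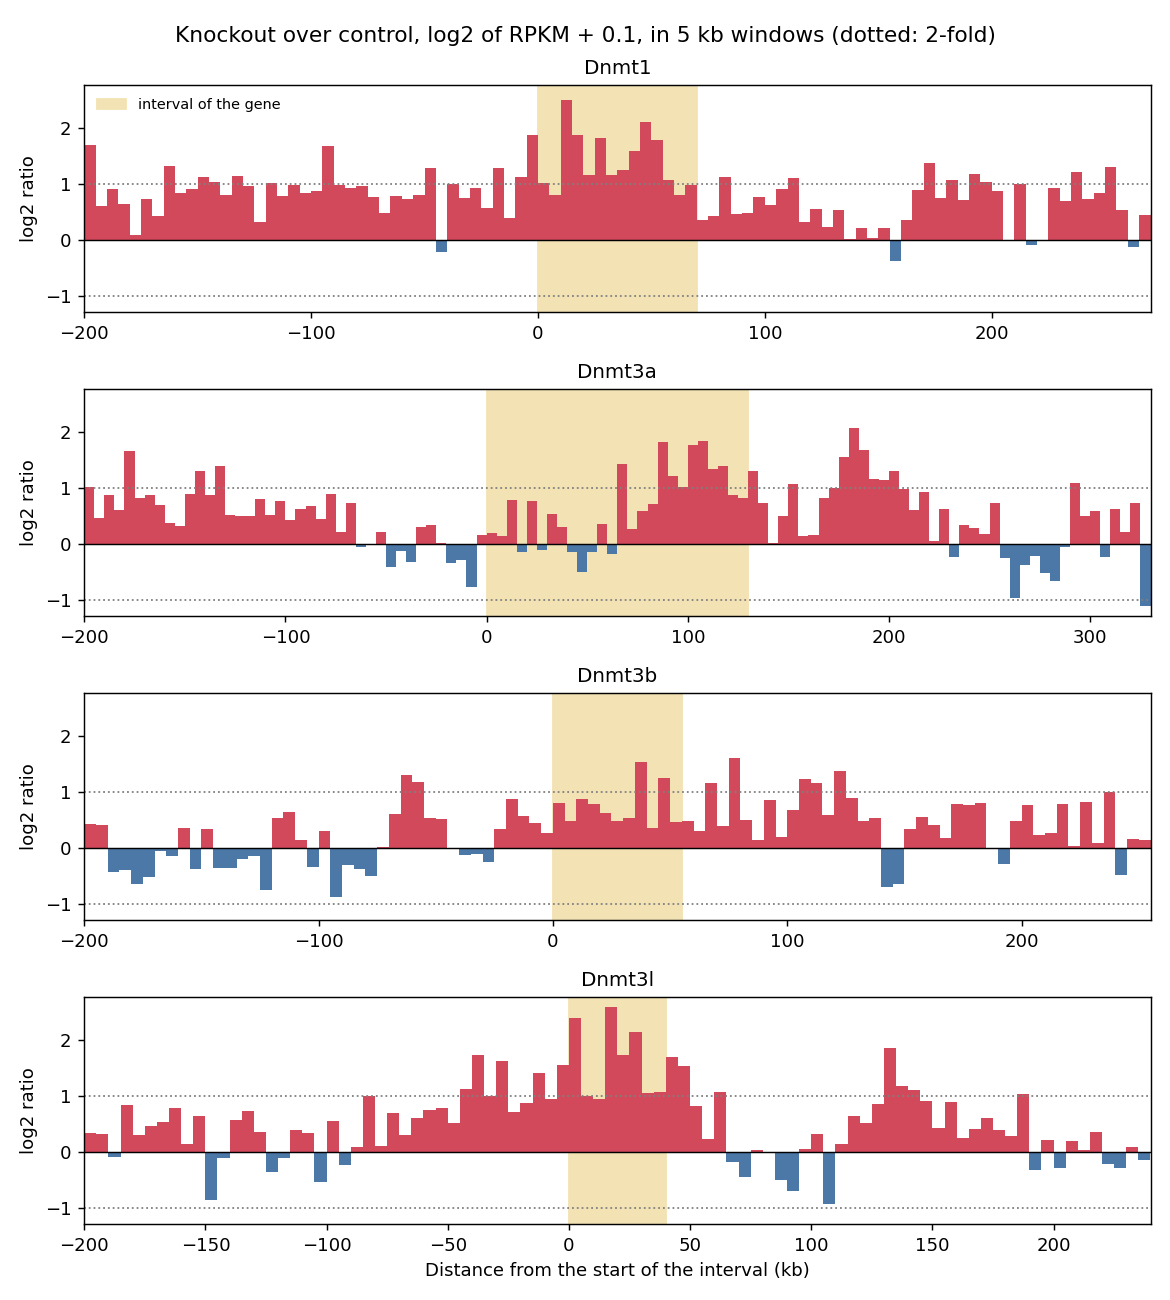
Knockout over control difference (y axis, log2 of RPKM + 0.1, dotted lines at 2-fold) in 5 kb windows along each interval, shaded, and 200 kb on each side (x axis, distance from the start of the interval in kb). Red bars are higher and blue bars lower in knockout; at Dnmt3l and Dnmt1 the tallest bars, 2.58 and 2.49, lie inside the interval, and the blue bars inside an interval are all at Dnmt3a.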

How the data were processed

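The assay was STAR ChIP-seq for H3K27ac on full-grown oocytes, and each deposited track pools the 2 replicates of 1 genotype, per the labels. The deposited tracks hold RPKM per 100 bp bin, computed by the authors. The unit was inferred from the values, and empty bins were counted as 0. The submitters' processing notes name build mm9 and Bowtie2 2.2.2. Whether duplicates were removed, reads extended or an input subtracted is not given in those sources and could change values at pile-ups.

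Every value was a whole multiple of that of 1 read (0.326 RPKM in control, 0.341 RPKM in knockout) within 0.005 RPKM. This gave 30694806 control and 29367645 knockout reads. Means over intervals, 5 kb and 1 kb windows and same-length stretches of the autosomes and X were compared as log2 of RPKM + 0.1, with a 2-fold rule for windows whose level over both pools reached the genome-wide mean. Ratios have Clopper-Pearson and levels Poisson intervals at 95%. With pooled tracks there was no test. The code was tested on simulated data.

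Named windows were the richest 1 kb window of each pool and the 5 kb windows at or above the mean with the highest and lowest difference; other positions were chosen after their values were seen. The members and lists were chosen with earlier results of these data known. Alternatives were other pseudocounts, scalings, filters, folds, windows, interval bounds and a limit of 10 reads per bin. Signal at promoters, the Setd2 gene, other pathway genes and markers of oocytes and granulosa cells would need mm9 gene positions; they were not analysed here, so the labelled cell type was not checked. RefSeq names and promoters are from GRCm38.p6, and no position of it was used on the tracks. The other 54 samples were not analysed here. The software was SciPy 1.17.1, pandas 2.3.3 and NumPy 2.4.6 under Python 3.11.15, with figures by matplotlib 3.10.9.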

Additional observations from a re-analysis of the deposited data

How the results depend on the processing

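No paired analysis was possible because each deposited track pools both replicates, and leaving out a replicate could not be done for the same reason. The log2 differences of the 4 loci were recomputed under each alternative, which gave 36 values, all of them above 0 and between 0.44 and 1.72. With a pseudocount of 0.01 RPKM they were 1.57, 0.89, 0.85 and 1.70 for Dnmt1, Dnmt3a, Dnmt3b and Dnmt3l, and with 0.5 RPKM 0.94, 0.46, 0.44 and 1.03, as a larger pseudocount shrinks ratios by construction. Scaling on windows below the mean multiplied all knockout values by 1.17 (0.22 in log2) and gave 1.60, 0.95, 0.92 and 1.72. Setting autosomal means or the median window equal shifted values by -0.05 and -0.03. At most 10 reads per bin gave 1.27 for Dnmt3l. The median over 5 kb windows gave 0.63 for Dnmt3a and 1.66 for Dnmt3l, and the cause was not tested. The 26 windows at least 2-fold higher became 13 with a pseudocount of 0.5 RPKM and 12 with a filter at 2 times the mean, which compares fewer windows. With more and smaller windows they were 51 at 2.5 kb and 121 at 1 kb. For the settings that gave 13, 12, 51 and 121, the share of all genome windows was not computed. These counts therefore cannot be set against a background. At least 2-fold lower windows numbered 2 at 1 kb and 0 otherwise. Depth limits single windows: the poorest control window held 10 reads.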

Other observations

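Adjacent 5 kb windows higher in knockout by any amount continued past the intervals at all 4 loci. These stretches were bounded by that direction, so their higher knockout levels follow from how they were chosen. How often stretches of such length occur in the genome was not counted. The stretch around Dnmt1 was 195 kb long, chr9:20660001-20855000, and went from 0.388 to 0.858 RPKM. That around Dnmt3l was 155 kb long, chr10:77405001-77560000, and went from 0.293 to 0.797 RPKM. Those at Dnmt3a and Dnmt3b were each 165 kb long. At Dnmt3a it began inside the interval, at chr12:3860001, and ended at chr12:4025000, going from 0.479 to 1.08 RPKM. At Dnmt3b it covered chr2:153440001-153605000 and went from 0.425 to 0.743 RPKM. The Dnmt3a interval also held a second pile-up, the 100 bp bin chr12:3816501-3816600, with 60 knockout reads and 3 control reads. With at most 10 reads per bin, the 5 kb window around it had a log2 difference of -0.20 in place of 0.76, and 19 in place of 20 of the 26 windows were higher in knockout.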
